A study of Mus musculus with 20 samples.

Results

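The later hours of erythropoietin (Epo) withdrawal were compared with the hours just before them, in mouse red cell progenitors that received no Epo. The members were the 3 arrays at 5, 6 and 7 h without Epo and the 3 arrays at 2, 3 and 4 h without Epo, 6 of the 20 arrays of the series, chosen by the hours in the labels. The arrays at 0 and 1 h without Epo stayed outside the test and are quoted as levels. The cells were CFU-E, colony-forming erythroid progenitors, from livers of BALB/c embryos at E13.5 (embryonic day 13.5), enriched by red cell lysis and magnetic removal of cells that carried markers of other lineages or the red cell marker Ter119. The labels name no genetic change in any group. Both windows had no hormone added after the start of the time course. The reference series received Epo at 0.5 U/ml and had arrays at the same 6 hours. The labels describe the cells before 0 h in different ways, as starved for 1 h just after sorting and as grown with Epo beforehand, so how long the cells had been away from the hormone at 0 h is not settled. Each hour had 1 array. The 3 hours of a window thus stood in for replicates, and nothing in the labels says that the hours came from separate cultures. The p-values therefore reflect how far arrays of successive hours scatter, a drift inside a window counts as scatter, and later hour and longer culture cannot be told apart.

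At the CFU-E stage, the survival of red cell precursors depends on Epo. The hormone binds its receptor, the receptor-bound kinase JAK2 phosphorylates the transcription factor STAT5, and STAT5 and parallel PI3K and ERK signals sustain survival, growth and division. When Epo is removed, FOXO factors are no longer held in the cytoplasm by AKT, and such cells are known to leave the cycle or die. Differentiating erythroblasts normally couple a series of rapid divisions to heme and globin synthesis, shrink their ribosome production, and remove organelles through lysosomes and autophagy.

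The medians of the 6 arrays over all genes lay between 4.86 and 4.90 on the log2 scale, which the unknown scaling may have made alike. Spike-in controls were lower on average at 5 to 7 h than at 2 to 4 h. The 5' probe set of the thr spike-in lay at 8.29, 8.24 and 8.35 and then at 8.08, 8.10 and 8.02. Others, such as those of the lys spike-in, overlapped between the windows. The part of these shifts in the results was not tested. Precision is limited by the 3 arrays of each window. Markers of the labelled cells were present: the transferrin receptor gene Tfrc lay between 12.97 and 13.51, Gata1 between 10.53 and 11.37 and Kit, the stem cell factor receptor, between 7.75 and 8.08, all chosen after their values were seen. Hepatocyte markers were present too and declined, with a summed linear signal over 14 genes of 13100, 10700 and 8550 at 2, 3 and 4 h and of 5960, 5540 and 5340 at 5, 6 and 7 h. For 12 granulocyte markers the sums were 994, 578 and 716, then 458, 454 and 406. Sums over the macrophage, megakaryocyte, mast cell, lymphoid and endothelial lists lay between 80.7 and 328 on these arrays. RNA quality moved with the windows in small steps. The 3' minus 5' signal of the Gapdh control was -0.17, -0.10 and -0.13, then -0.01, 0.00 and 0.09 (difference 0.16), and that of the Actb control differed by 0.15. For each the exact permutation test gave p = 0.10, two-sided, the smallest that 3 arrays against 3 allow. A probe set at the 5' end of 18S ribosomal RNA moved further, at 8.78, 9.23 and 9.40 and then 8.25, 8.47 and 7.34. The 18S probe sets at the 3' end and in the middle overlapped between the windows, with differences of -0.28 and -0.41. The part of these differences in the results was not tested. The series also lay apart from each other. Over 0 to 7 h the 5' 18S probe set lay at 7.34 to 9.40 without Epo and at 6.01 to 7.28 with it. The other 18S probe sets overlapped between the series, the 3' one at 6.89 to 7.61 without and 6.76 to 7.62 with Epo. The middle one lay at 6.14 to 7.19 without and 6.34 to 7.40 with Epo. At 0 h the hepatocyte sum was 17000 without and 36600 with Epo. In the Epo series the 2 h array stood apart on the thr spike-in control (9.92 for its 3' probe set, against 8.22 to 8.65 at 3 to 7 h) and on the 3' minus 5' signal of Actb (1.00, against 0.59 to 0.66), which touches each difference between the series.

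Between 2 to 4 h and 5 to 7 h without Epo, 3044 of 18193 genes were called (limma, Benjamini-Hochberg adjusted p under 0.05; 16.7%). Of these, 1677 rose (9.22%) and 1367 fell (7.51%), and 149 rises (0.819%) and 148 falls (0.813%) were at least 2-fold. The windows did not overlap, in the direction called, for 1674 of the 1677 and 1366 of the 1367. Over all genes tested they did not overlap for 3200 upward (17.6%) and 3224 downward (17.7%). In the Epo series the same hours gave 33 called genes (0.181%), 11 higher and 22 lower. By unadjusted p under 0.05 (limma) there were 1813 genes with Epo and 5253 without. A gene not called with Epo had thus not necessarily stayed level. The odd 2 h array of that series entered its count, and its part was not tested. The change itself differed between the series for 1384 genes (7.61%), 771 of them more positive and 613 more negative without Epo. That balance turned after quantile normalization, to 730 and 797, without 5 h, to 380 and 457, and without 3 h, to 211 and 242. Without 6 h it was 118 and 118. The median change of all genes was -0.02 without Epo and -0.01 with it. A step from 4 to 5 h stood between the windows: 51 genes were at least 2-fold apart on those arrays, against 6 between 3 and 4 h, 1 between 5 and 6 h and 4 between 6 and 7 h. Within the earlier window 106 genes were as far apart between 2 and 3 h. Of the called genes, 445 of the risen stepped up and 501 of the fallen stepped down at each of the 5 successive hours, and over all genes 595 and 657 did. The count depended on single hours: 1772 genes were called without 3 h, 1842 without 5 h, 1183 without 6 h and 845 without 7 h.

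**Figure D1:**
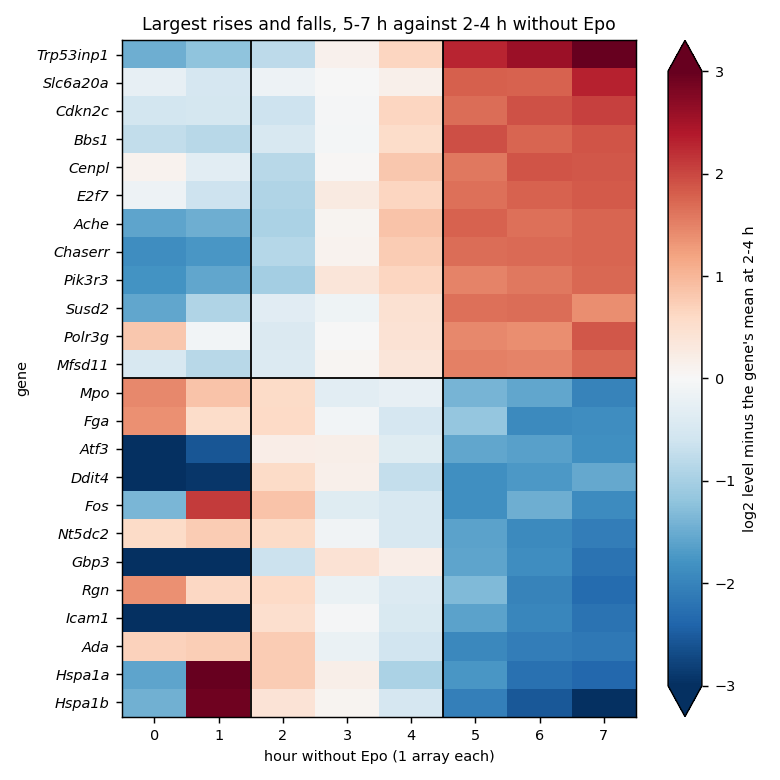
Log2 level of the 12 genes with the largest rises (top) and the 12 with the largest falls (bottom) at each hour without Epo, 1 array per column, each as the distance from its own mean at 2 to 4 h (colour, cut at 3 in either direction). Vertical lines bound the window at 2 to 4 h. By the rule of choice, each row lies on 1 side of its 2 to 4 h mean at 5, 6 and 7 h. Several rows, such as Cenpl, had already crossed that mean by 4 h. Several of the genes that fell, such as Atf3 (3.83 at 0 h), had been low before the earlier window.

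The largest rise was that of Trp53inp1, a p53-inducible nuclear protein gene that also acts in autophagy. It lay at 4.44, 5.35 and 5.85 at 2, 3 and 4 h and at 7.50, 7.78 and 8.21 at 5, 6 and 7 h, a rise of 2.62 ± 0.31 (SE; adjusted p = 0.0023), or 6.13-fold. The rule that chose these genes required separate windows. The other probe set of Trp53inp1 rose less, by 0.47. Cdkn2c, which encodes the CDK4 and CDK6 inhibitor p18, lay at 7.04, 7.64 and 8.32 and then at 9.34, 9.57 and 9.73, a rise of 1.88 ± 0.26 (adjusted p = 0.0028). With Epo it lay between 6.25 and 7.06 at these hours. E2f7, a repressive member of the E2F family, rose from 6.21, 7.37 and 7.75 to 8.75, 8.89 and 8.96 (1.76 ± 0.31, adjusted p = 0.0052). Cenpl, a centromere protein gene, rose from 7.76, 8.65 and 9.41 to 10.19, 10.49 and 10.47 (1.78 ± 0.31, adjusted p = 0.0055). For both, the array at 4 h already lay above that at 2 h by more than 1.5, so the rise began inside the earlier window.

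Ache, which encodes the acetylcholinesterase that red cells carry on their surface, went from 5.98, 7.02 and 7.79 to 8.69, 8.59 and 8.67 (1.72 ± 0.34, adjusted p = 0.0086). Slc6a20a, a proline transporter gene, was dim and steady at 2.92, 3.06 and 3.23 and then lay at 4.87, 4.84 and 5.37 (1.96 ± 0.16, adjusted p = 0.0021). Pik3r3, a regulatory subunit of PI3K, went from 4.74, 6.13 and 6.41 to 7.25, 7.35 and 7.48 (1.60 ± 0.34). The cilium gene Bbs1 rose by 1.86, the long non-coding RNA Chaserr by 1.70, the membrane protein gene Susd2 by 1.57, the RNA polymerase III subunit Polr3g by 1.57 and the transporter-like gene Mfsd11 by 1.57. The further probe sets of Chaserr (0.04) and Mfsd11 (0.03 and 0.36) hardly moved. With Epo these 8 genes changed by -0.19 to 0.44 between the same hours. Without 7 h, Ache (adjusted p = 0.057) and Pik3r3 (adjusted p = 0.071) did not pass.

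Several of the largest falls were those of genes that stood high at 1 or 2 h. Hspa1b and Hspa1a encode the inducible chaperone HSP70 and are near-identical copies, so their probe sets may read each other. Hspa1b lay at 7.85 at 0 h and 12.20 at 1 h, then at 9.70, 9.37 and 8.77 in the earlier window and 7.24, 6.73 and 6.29 in the later one (-2.53 ± 0.26, adjusted p = 0.0021). Hspa1a lay at 8.15, 7.56 and 6.44 and then at 5.64, 5.16 and 5.04 (-2.11 ± 0.35, adjusted p = 0.0044). Ddit4, which encodes the mTORC1 inhibitor REDD1, stood at 4.30 at 0 h, at 8.69, 8.29 and 7.41 and then at 6.28, 6.40 and 6.58 (-1.71 ± 0.26, adjusted p = 0.0035). Icam1, an adhesion molecule gene induced by NF-kB, stood at 3.62 at 0 h, 8.18, 7.65 and 7.23 in the earlier window and 6.08, 5.73 and 5.47 in the later one (-1.93 ± 0.23). For Ddit4 and Icam1 the later levels were thus still above those at 0 h.

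A second kind of fall began from a high 0 h level. Ada, adenosine deaminase, lay at 7.36 at 0 h and at 7.43, 6.46 and 6.09 and then 4.72, 4.59 and 4.52 (-2.05 ± 0.27, adjusted p = 0.0027). Nt5dc2, a nucleotidase domain gene, lay at 10.05 at 0 h and at 10.04, 9.37 and 8.99 and then 7.85, 7.56 and 7.39 (-1.87 ± 0.23, adjusted p = 0.0024). With Epo, Ada lay between 6.85 and 7.38 and Nt5dc2 between 9.16 and 9.64 over the same hours. Also among the 12 were the interferon-inducible Gbp3 (-1.88) and the stress factors Fos (-1.73) and Atf3 (-1.68). The remaining 3 are genes of other cell types: Rgn (-1.88) and Fga (-1.65) of hepatocytes and Mpo (-1.65) of granulocyte precursors. These fell beside the marker sums given above. In bulk RNA, fewer cells of a type and less RNA per cell cannot be told apart.

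**Figure D2:**
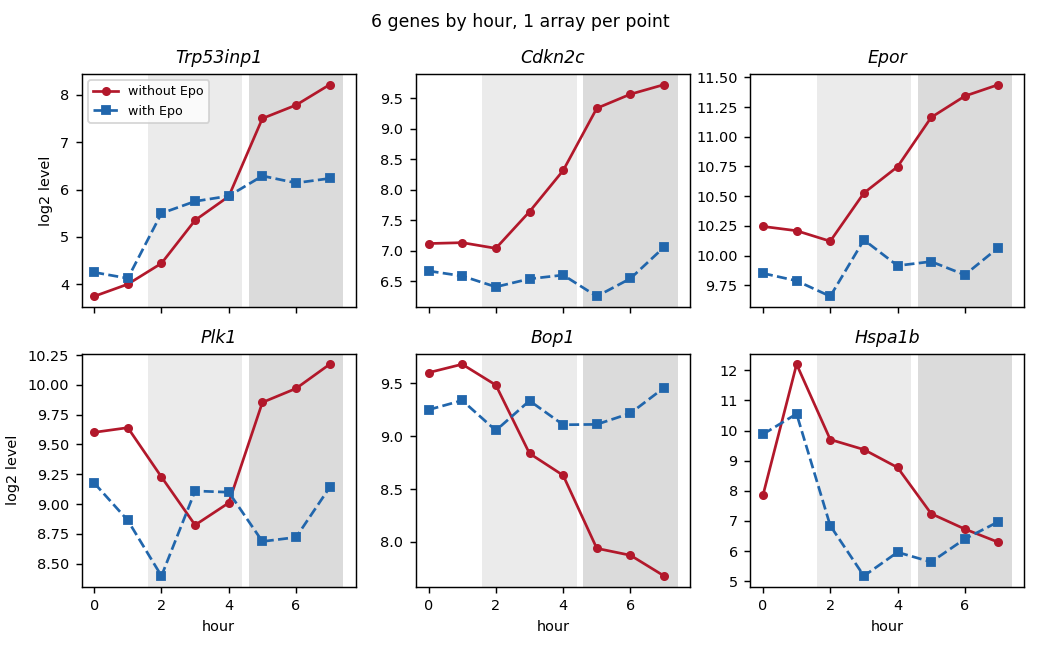
Log2 level (vertical axis) against hour for 6 genes without Epo (red circles) and with Epo (blue squares), 1 array per point, with the windows at 2 to 4 h and 5 to 7 h shaded light and dark. Without Epo, Trp53inp1, Cdkn2c, Epor and Plk1 lie higher at each of 5, 6 and 7 h than at any of 2, 3 and 4 h, and Bop1 and Hspa1b lie lower.

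The genes of the receptor and its kinase rose, and those of the STAT5 factors did not pass the test. Epor, the Epo receptor, lay at 10.12, 10.53 and 10.75 and then at 11.16, 11.34 and 11.44 without Epo (0.85 ± 0.14, adjusted p = 0.0047), against 9.66 to 10.13 with Epo. Jak2, the receptor's kinase, lay at 7.96, 7.88 and 8.06 and then at 8.60, 8.81 and 8.96 (0.82 ± 0.12, adjusted p = 0.0031), and its other probe set moved by 0.82 as well. For both genes the windows were fully separate without Epo, as they were for 1674 of the 1677 called rises. Stat5a lay at 7.90, 7.17 and 7.02 and then at 6.97, 7.07 and 7.04 (-0.34 ± 0.20, adjusted p = 0.31), having stood at 8.17 at 0 h. Stat5b was at 7.44, 7.06 and 7.15 and then at 7.27, 7.07 and 7.22 (-0.03 ± 0.13, adjusted p = 0.94). Of 16 measured genes of this pathway 3 rose (18.8%) and 1 fell (6.25%), with a median change of 0.03. Over all genes 9.22% rose and 7.51% fell, with a median of -0.02, and the counts of each list that follows are to be read against these. The others called were the PI3K catalytic subunit Pik3ca (0.50) and the cytokine kinase Jak1 (-0.40). Pik3ca did not pass without 3, 5, 6 or 7 h (adjusted p up to 0.13), nor Jak1 (up to 0.12). In the pathway list 2 genes were called higher and 0 lower without 3, 5, 6 or 7 h.

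Cish and Socs3, inhibitors that Epo signalling induces, did not pass the test. Cish lay at 6.81, 6.12 and 5.74 and then at 5.86, 5.45 and 5.74 (-0.54 ± 0.23, adjusted p = 0.16), and Socs3 between 3.50 and 4.04 (-0.27 ± 0.13, adjusted p = 0.19). With Epo, Cish lay between 8.00 and 8.47 and Socs3 between 6.58 and 7.37 at these hours. Socs2, of the same family, fell from 6.00, 5.39 and 5.49 to 4.42, 4.60 and 4.30 (-1.18 ± 0.17, adjusted p = 0.0028), and with Epo lay between 6.53 and 7.31. Its 5 other probe sets ranged from -1.18 to 0.14, 4 of them downward. Of 20 inhibitors 4 rose (20.0%) and 2 fell (10.0%, median -0.04), with the SUMO ligase gene Pias1 (0.73) and Socs4 (0.59) among the risen and the phosphatase gene Ptprc (-0.69) beside Socs2 among the fallen. Ptprc marks white blood cells. No inhibitor was called higher without 6 or without 7 h, and 2 were without 3 or 5 h.

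STAT5 targets were called in both directions. Of 21 measured, 5 rose (23.8%) and 4 fell (19.0%, median -0.12). Bcl2l1, which encodes the survival protein BCL-XL, rose from 7.83, 8.23 and 8.59 to 9.17, 9.22 and 9.39 (1.05 ± 0.17, adjusted p = 0.0041), while with Epo it lay between 8.02 and 8.30. Its 3 other probe sets moved by 0.00 to 0.86. The growth arrest gene Gadd45g rose by 1.13 from 7.33, 7.80 and 8.30 to 8.85, 8.85 and 9.11. Podxl, a sialomucin of early progenitors, fell from 8.61, 7.66 and 7.11 to 6.68, 6.49 and 6.03 (-1.39 ± 0.32, adjusted p = 0.015), against 8.61 to 9.38 with Epo. Pim1, a survival kinase and Epo target, lay at 6.86, 6.86 and 7.19 and then at 7.19, 7.28 and 7.35 (0.31 ± 0.13, adjusted p = 0.14), against 8.86 to 9.47 with Epo. Without 7 h, 2 targets were called higher and 1 lower, without 5 or 6 h 3 were higher, and without 6 h 2 were lower. Podxl did not pass without 3, 6 or 7 h (adjusted p up to 0.093), nor Gadd45g without 7 h (0.051).

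Of 16 CDK inhibitors and antiproliferative genes 6 rose (37.5%), 1 fell and 9 were not called (median 0.32). The largest rise was that of Cdkn2c. Cdkn1a, which encodes p21, rose from 7.17, 7.23 and 7.55 to 7.85, 8.03 and 8.24 (0.72 ± 0.14, adjusted p = 0.0082). Gadd45a, a growth arrest gene, rose from 9.28, 9.30 and 9.73 to 10.19, 10.35 and 10.49 (0.91 ± 0.13). Cdkn1c, which encodes p57, fell from 6.82, 6.46 and 6.26 to 5.54, 5.70 and 5.76 (-0.84 ± 0.15). With Epo it changed by -0.79 between the same hours, which was not called (adjusted p = 0.16). Some brakes had reached their level earlier: Btg1 went from 8.14 at 0 h to 10.54, 10.98 and 11.15 and then 11.31, 11.25 and 11.20, and Btg2 from 7.09 to 10.06, 9.79 and 9.64 and then 9.58, 9.55 and 9.58. Both were chosen after their values were seen, and neither passed the test (adjusted p = 0.097 and 0.16). Without 7 h 2 members of the list were called higher, and without 5 h 4. Cdkn1a did not pass without 7 h (adjusted p = 0.061).

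Mitosis genes made up the list with the largest median rise. Of 33 measured 23 rose (69.7%, against 9.22% of all genes) and 0 fell, with a median change of 0.59, and over 6 leave-one-hour-out fits 16 to 30 were called higher. With Epo the median change of the same genes was -0.03 and none was called in either direction (limma, adjusted p under 0.05), where 0.181% of all genes were. For 16 of the 33 the change was more positive without Epo, against 4.24% of all genes. That count was 5 without 6 h, 11 without 3 or 7 h, 26 without 2 h and 9 with the mean of probe sets. The list's median level, taken as the distance from its mean at 2 to 4 h, was 0.03, -0.05 and 0.05 at 2, 3 and 4 h and 0.50, 0.53 and 0.69 at 5, 6 and 7 h. These values are flat over the earlier window and step up between 4 and 5 h. Anln, the cytokinesis scaffold anillin, lay at 7.68, 7.94 and 7.93 and then at 8.96, 8.95 and 9.12 (1.16 ± 0.11, adjusted p = 0.0021). Nusap1, a spindle protein gene, lay at 9.90, 10.44 and 10.57 and then at 11.16, 11.40 and 11.62 (1.09 ± 0.17), and its other probe set moved by 0.07. Cenpf, a kinetochore gene, lay at 6.83, 6.87 and 7.08 and then at 7.84, 7.98 and 8.16 (1.07 ± 0.13). Plk1, the mitotic polo-like kinase, lay at 9.23, 8.82 and 9.01 and then at 9.85, 9.97 and 10.17 (0.98 ± 0.13), where with Epo it ranged from 8.40 to 9.14. Cenpf had stood at 7.91 at 0 h and 7.01 at 1 h, Plk1 at 9.60 and 9.64, and Nusap1 at 9.17 and 9.36. Plk1 at 5 to 7 h thus lay above its 0 and 1 h levels, and Cenpf passed its 0 h level at 6 and 7 h.

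Because these genes moved together, the promoter windows of 4 are shown. Each is the 250 bases before the start site in RefSeq's GRCm38.p6 annotation, read 5' to 3' on the gene's strand: chr9:22389207-22389456 on the minus strand for Anln, chr2:119618048-119618297 on the plus strand for Nusap1, chr1:189688087-189688336 on the minus strand for Cenpf and chr7:122159185-122159434 on the plus strand for Plk1. Capitals mark CCAATCA, the letters searched for the CCAAT-binding factor NF-Y, on either strand. Anln was taken as the member with the largest change, and the next 3 by size of change, Nusap1, Cenpf and Plk1, were added after the counts below were seen. The letters stand in the windows of Cenpf and Plk1 and not in those of Anln and Nusap1. Polr1e and Psmb3 were taken from the ribosome biogenesis and proteasome lists by the same rule, among genes with a promoter window to print. They held none of the letters searched and are not printed. Bop1 changed more than Polr1e but had no such window.
Anln: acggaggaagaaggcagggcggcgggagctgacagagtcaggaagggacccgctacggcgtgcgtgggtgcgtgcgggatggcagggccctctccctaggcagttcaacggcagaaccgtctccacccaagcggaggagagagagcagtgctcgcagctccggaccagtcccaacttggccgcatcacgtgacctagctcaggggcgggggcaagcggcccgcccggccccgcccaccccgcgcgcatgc
Nusap1: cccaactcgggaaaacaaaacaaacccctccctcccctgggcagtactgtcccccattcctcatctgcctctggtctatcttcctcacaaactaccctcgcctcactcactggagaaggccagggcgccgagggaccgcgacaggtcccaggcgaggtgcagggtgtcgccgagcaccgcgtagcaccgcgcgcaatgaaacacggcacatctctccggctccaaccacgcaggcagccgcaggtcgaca
Cenpf: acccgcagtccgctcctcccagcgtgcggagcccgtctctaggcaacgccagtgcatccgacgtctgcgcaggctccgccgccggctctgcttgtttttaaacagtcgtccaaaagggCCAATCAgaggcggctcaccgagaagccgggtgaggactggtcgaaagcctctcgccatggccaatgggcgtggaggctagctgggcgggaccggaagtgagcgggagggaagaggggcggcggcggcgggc
Plk1: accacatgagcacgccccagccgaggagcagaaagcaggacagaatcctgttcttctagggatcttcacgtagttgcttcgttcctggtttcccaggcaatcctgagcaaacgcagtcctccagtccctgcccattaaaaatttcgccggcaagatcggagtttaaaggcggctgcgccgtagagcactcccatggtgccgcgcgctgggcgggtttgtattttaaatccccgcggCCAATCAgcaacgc

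Of the 18193 genes 14368 had a window in the RefSeq promoter table, counted over 300 bases with 50 after the start. CCAATCA stood in 9.61% of these windows, in 14.0% of those of genes that rose and in 10.8% of those of genes that fell. Among mitosis genes it stood in 13 of 29 windows (44.8%). Of those 13 genes 9 rose and 4 did not pass, and of the 16 without the letters 11 rose and 5 did not. The letters TTTCGCGC or TTTGGCGC (E2F) stood in 1.29% of all windows and in 1 of the 29. The palindrome of the lysosomal CLEAR element stood in 0.557% of all windows, 1.52% of those of risen and 0.350% of those of fallen genes, and in 0 of 31 windows of autophagy and lysosome genes. GTAAACA (FOXO) stood in 2.80% of all, 2.68% of risen and 2.27% of fallen windows. For AGATAA, the letters searched for erythroid factors of the GATA family, the shares were 8.12%, 5.93% and 6.30%. For the ATF4 letters, whose search word was TTGCATCA, they were 0.689%, 0.362% and 0.700%. For AP-1, searched as ATGACTCA, they were 0.905%, 0.507% and 0.175%. A match describes the letters of the window only. The windows of risen genes had a median of 62.3% G or C, those of fallen genes 60.0% and all windows 58.7%.

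Of 33 measured DNA replication and G1/S genes 13 rose (39.4%) and 1 fell (3.03%, median 0.24). Gins3, a subunit of the replicative helicase, rose from 6.91, 7.66 and 8.22 to 8.87, 8.87 and 8.81 (1.25 ± 0.26, adjusted p = 0.0095). Cdc6, which loads that helicase, rose from 11.04, 11.70 and 11.91 to 12.43, 12.50 and 12.54 (0.94 ± 0.18), the flap nuclease gene Fen1 from 11.81, 12.14 and 12.33 to 12.89, 13.01 and 13.14 (0.92 ± 0.12) and the DNA methylation adaptor Uhrf1 from 11.23, 11.67 and 11.72 to 12.27, 12.34 and 12.53 (0.84 ± 0.12). With Epo, Fen1 and Uhrf1 changed by -0.07 and -0.13. In these 4 genes, as in Nusap1, the 4 h level was already above the 2 h level. Pold1, a DNA polymerase subunit chosen after its value was seen, fell by 0.52 on the log2 scale, and no member was called lower without 3, 5, 6 or 7 h. Without 7 h 5 members of the list were called higher, and without 6 h 6, and Gins3 did not pass without 7 h (adjusted p = 0.057). Of 9 histone genes, which have near-identical copies, only the linker histone gene H1f2 was called (-0.80), from 10.29, 10.42 and 10.31 to 9.83, 9.65 and 9.14. After rescaling to 1 distribution or 1 median, 1 histone gene was also called higher.

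**Figure D3:**
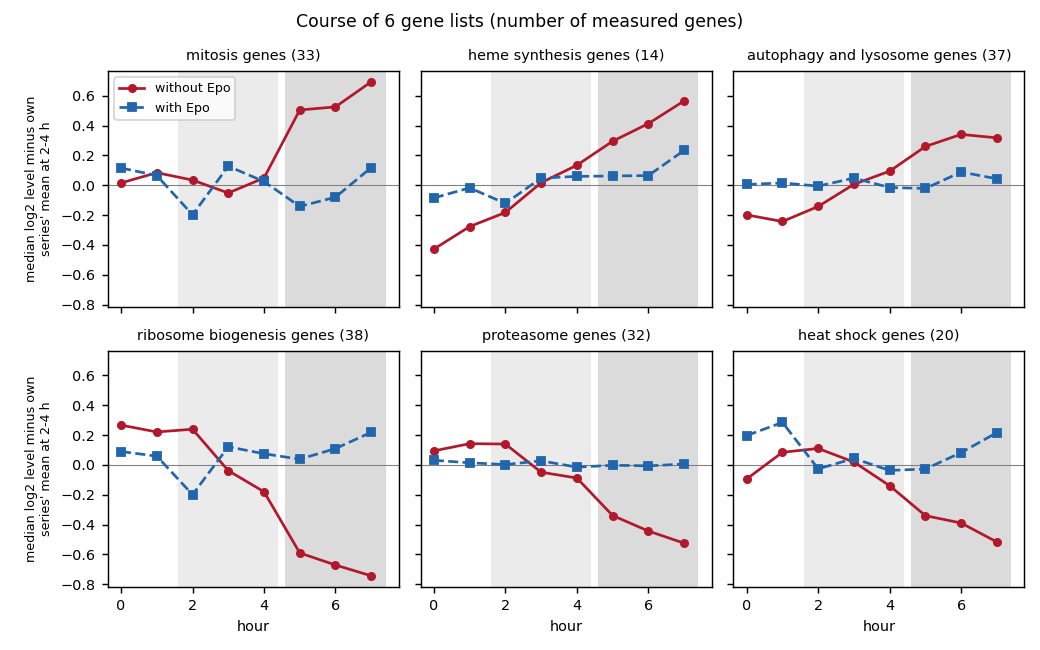
Median log2 level of the members of 6 gene lists by hour, each gene taken relative to its mean at 2 to 4 h in its own series, without Epo (red circles) and with Epo (blue squares); 1 array per point, measured genes in brackets, windows shaded. Without Epo the mitosis genes step from 0.05 at 4 h to 0.50 at 5 h and the ribosome biogenesis genes from -0.18 to -0.59, while the heme synthesis genes climb from -0.43 at 0 h to 0.57 at 7 h.

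Of 14 heme synthesis genes 9 rose (64.3%) and 0 fell, with a median change of 0.42 against 0.08 with Epo. Alas2, the erythroid first enzyme of the pathway, lay at 6.75 at 0 h, at 8.00, 8.76 and 8.96 and then at 9.66, 9.72 and 9.97 (1.20 ± 0.21, adjusted p = 0.0053). With Epo it lay at 7.87, 8.54 and 8.89 and then at 9.21, 9.64 and 9.92 (1.16, adjusted p = 0.071). Abcb10, a mitochondrial transporter needed for heme synthesis, rose from 9.55, 9.79 and 10.01 to 10.87, 10.91 and 11.29 (1.24 ± 0.14, adjusted p = 0.0021), where with Epo it lay between 8.48 and 9.05 (-0.01). The glycine transporter gene Slc25a38 rose by 0.85 (-0.01 with Epo) and Uros, the fourth enzyme, by 0.75 (0.61 with Epo). The change differed between the series for 4 of the 14 genes, each more positive without Epo, where 4.24% of all genes were. That count was 1 without 6 or 7 h, 2 without 3 h and 2 without a variance trend. The list kept 6 to 9 rises without single hours, with the lowest count, 6, without 7 h. Of 5 measured globin genes and Ahsp, 3 rose and 0 fell: the embryonic globins Hbb-bh1 (0.94), Hba-x (0.47) and Hbb-y (0.31). They have close copies that probes may share. The list named 10 genes, and probe sets that carried several gene symbols were not used. The counts thus say nothing of the globin genes that were not measured. Hbb-bh1 lay at 8.84, 9.25 and 9.68 and then at 10.16, 10.15 and 10.28. With Epo, Hbb-bh1, Hba-x and Hbb-y were at 0.54, -0.42 and -0.55, none called, and the difference between the series was not called for Hbb-bh1 (0.40). No globin gene passed without 7 h, 1 passed without 5 or 6 h and 2 without 3 h, with adjusted p up to 0.090 for Hba-x, 0.074 for Hbb-y and 0.051 for Hbb-bh1.

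Of 26 membrane and surface genes of the red cell 11 rose (42.3%) and 2 fell (7.69%), with a median change of 0.23. Gypc, a glycophorin, rose from 9.94, 10.41 and 10.50 to 11.05, 11.17 and 11.36 (0.91 ± 0.14, adjusted p = 0.0036), and the glucose transporter Slc2a1 from 9.97, 10.35 and 10.61 to 11.21, 11.16 and 11.27 (0.90 ± 0.14). The blood group gene Ermap (0.79) and the membrane skeleton gene Dmtn (0.79) followed. With Epo the same 4 genes changed by 0.31 to 0.88, none called. Of 22 terminal remodelling genes 10 rose (45.5%) and 0 fell (median 0.30). Among the risen were the poly(A) polymerase gene Tent5c (1.01), the ubiquitin ligase gene Ube2o (0.83) and the ubiquitin-conjugating gene Ube2h (0.76). Epor (0.85), given above, is counted in this list too. Ube2o, which clears ribosomal proteins in reticulocytes, lay at 5.88, 6.09 and 6.06 and then at 6.78, 6.76 and 6.97, while with Epo it lay between 6.23 and 7.32. For membrane genes the rises numbered 4 without 7 h, 6 without 6 h and 7 without 3 or 5 h, and for remodelling genes 4, 5 and 5 or 7. The 2 falls among membrane genes were lost without 3, 5, 6 or 7 h (0 lower). Dmtn did not pass without 6 or 7 h (adjusted p up to 0.089), Tent5c without 7 h (0.062) nor Ube2h without 3, 5, 6 or 7 h (up to 0.16).

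Of 24 erythroid transcription factors 6 rose and 1 fell (median 0.23). Bach1, the heme-sensing repressor, rose from 8.10, 8.76 and 9.14 to 9.57, 9.60 and 9.67 (0.95 ± 0.21, adjusted p = 0.014), against -0.37 with Epo. Nfe2, a globin activator (0.94), Klf1, the erythroid Krueppel-like factor (0.79), and Lyl1 (0.70) also rose. Klf1 had stood at 12.47 at 0 h and lay at 11.32, 12.07 and 12.27 and then at 12.56, 12.66 and 12.80, so the later window was close to the starting level. Lyl1 stood at 0.67 with Epo, which was not called (adjusted p = 0.13). Only 1 factor was called higher without 6 or 7 h, 4 without 3 or 5 h, 9 without 2 h and 10 without 4 h. Bach1 did not pass without 6 or 7 h (adjusted p up to 0.079), Klf1 without 5, 6 or 7 h (up to 0.11) nor Nfe2 without 3, 5, 6 or 7 h (up to 0.17). Of 15 iron genes 4 rose and 1 fell (median 0.14): Steap3, the endosomal ferrireductase (0.82), the ferritin receptor Ncoa4 (0.69) and the iron chaperone Pcbp1 (0.52) were among the risen, and Aco1, the iron regulatory aconitase, fell (-0.44). Without 6 or 7 h, 1 iron gene was called higher, and without 3 h 2, and Aco1 was lost without 5, 6 or 7 h (adjusted p up to 0.12). Of 22 progenitor genes 1 rose and 4 fell (median -0.20). Cd44, an adhesion receptor lost as erythroblasts mature, fell from 8.94, 8.20 and 7.89 to 7.48, 7.48 and 7.32 (-0.92 ± 0.22, adjusted p = 0.018), and the myeloid factors Fli1 (-0.59) and Spi1 (-0.56) fell. The polycomb gene Bmi1 rose (0.73), back to 8.68, 8.58 and 8.67 from 8.27, 7.46 and 8.01 and from 8.74 at 0 h. Of these, 1 was called lower without 3, 5 or 6 h and 0 without 7 h (Cd44 adjusted p up to 0.10, Fli1 up to 0.11, Spi1 up to 0.081), and Bmi1 was lost without 5, 6 or 7 h (up to 0.098).

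Ribosome biogenesis genes had the largest median fall of any list outside the marker lists. Of 38 measured 29 fell (76.3%, against 7.51% of all genes) and 1 rose, with a median change of -0.68, against 0.11 with Epo and 0 called there. For 25 of the 38 the change was more negative without Epo, where 3.37% of all genes were. That count was 7 without 6 h, 10 without 7 h, 14 without 3 h and 15 with the mean of probe sets. Bop1 and Wdr12, partners in the complex that matures the large ribosomal subunit, fell together. Bop1 lay at 9.48, 8.84 and 8.63 and then at 7.94, 7.87 and 7.68 (-1.15 ± 0.19, adjusted p = 0.0045), with its other probe set at -0.07. Wdr12 lay at 10.22, 10.10 and 9.92 and then at 9.28, 9.01 and 8.89 (-1.02 ± 0.12, adjusted p = 0.0024). Its other probe sets ranged from -1.08 to 0.02. Polr1e, an RNA polymerase I subunit, lay at 7.55, 6.83 and 6.66 and then at 6.07, 6.09 and 5.69 (-1.06 ± 0.22), having stood at 8.43 at 0 h. Rrp9, a component of the U3 particle, lay at 8.97, 8.35 and 8.18 and then at 7.42, 7.58 and 7.35 (-1.05 ± 0.18). With Epo Bop1 lay between 9.05 and 9.46 and Rrp9 between 8.90 and 9.27 over the same hours. The gene that rose was Ubtf, an activator of ribosomal DNA transcription chosen after its value was seen, from 8.44, 8.36 and 8.43 to 9.03, 9.22 and 9.44 (0.82). The fall counted 16 genes without 7 h and 22 to 33 without any other hour, and Polr1e did not pass without 7 h (adjusted p = 0.068). The 5' 18S probe set given above moved in the same direction, while the 3' and middle 18S probe sets overlapped between the windows. The part of the 18S signal in these falls was not tested.

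Of 35 mitochondrial ribosomal protein genes 15 fell (42.9%) and 2 rose (5.71%, median -0.32). Mrps10 lay at 9.93, 9.66 and 9.52 and then at 9.05, 8.81 and 8.59 (-0.89 ± 0.14, adjusted p = 0.0039), against 10.24 to 10.60 with Epo. Mrps9 (-0.94), Mrps25 (-0.89) and Mrpl12 (-0.89) fell too. Of 33 oxidative phosphorylation genes 12 fell (36.4%) and 0 rose (median -0.12, near the -0.09 with Epo, where 0 were called). Sdhb, the iron-sulfur subunit of complex II, lay at 10.94, 10.75 and 10.73 and then at 10.02, 9.80 and 9.56 (-1.01 ± 0.12, adjusted p = 0.0023). The ATP synthase subunit Atp5c1 (-0.97), Ndufb8 of complex I (-0.88) and Uqcrc2 of complex III (-0.76) fell as well. Atp5c1 rests on its brightest probe set alone, since the other lay at 0.05. Without 7 h 4 mitochondrial ribosomal and 6 oxidative phosphorylation genes were called lower, without 6 h 5 and 7, and without 3 h 12 and 8. Mrps9 did not pass without 3, 5, 6 or 7 h (adjusted p up to 0.18), Mrpl12 without 5, 6 or 7 h (up to 0.094) nor Ndufb8 without 7 h (0.056).

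Of 32 proteasome genes 21 fell (65.6%) and 0 rose, with a median of -0.44 against 0.01 with Epo, where 0 were called. Psmb3, a subunit of the catalytic core, lay at 11.30, 10.22 and 9.99 and then at 9.37, 9.39 and 9.03 (-1.24 ± 0.27, adjusted p = 0.013). Psmb10, an immunoproteasome subunit, lay at 9.59, 9.28 and 9.33 and then at 8.65, 8.50 and 8.34 (-0.90 ± 0.12), and the regulatory subunits Psmd1 (-0.89) and Psmd2 (-0.84) fell. With Epo Psmb3 stayed between 11.49 and 11.71. Fewer proteasome genes were called lower without single hours, 4 without 7 h, 11 without 6 h and 13 without 3 h. Over all genes the falls also dropped, from 1367 to 360 without 7 h, 520 without 6 h and 862 without 3 h. Psmb3 was at an adjusted p of 0.084 without 7 h, Psmd1 up to 0.12 and Psmd2 at 0.053. Of 20 heat shock genes 12 fell and 0 rose (median -0.41, 0.09 with Epo). Beside Hspa1a and Hspa1b these included Hsph1, an HSP110 chaperone, from 11.26, 11.20 and 10.86 to 10.24, 10.03 and 9.80 (-1.08 ± 0.13, adjusted p = 0.0024), and the HSP40 gene Dnaja1 (-0.89). The count was 6 without 7 h and 7 without 6 h. Of 23 endoplasmic reticulum chaperone genes 6 fell and 1 rose (median -0.23). Hsp90b1 (GRP94) lay at 10.36, 9.30 and 8.86 and then at 8.40, 8.24 and 8.14 (-1.24 ± 0.30, adjusted p = 0.018). The disulfide isomerases Pdia3 (-1.03) and Pdia6 (-0.96) and the chaperone Hyou1 (-0.61) also fell, though the other probe set of Pdia3 lay at 0.04. Of these genes 3 were called lower without 7 h and 9 without 4 h, and 4 without 5 or 6 h, and the rise was lost without 3, 5, 6 or 7 h (0 higher). Hsp90b1 did not pass without 3, 5, 6 or 7 h (adjusted p up to 0.097) nor Hyou1 without 5 or 7 h (up to 0.068).

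**Figure D4:**
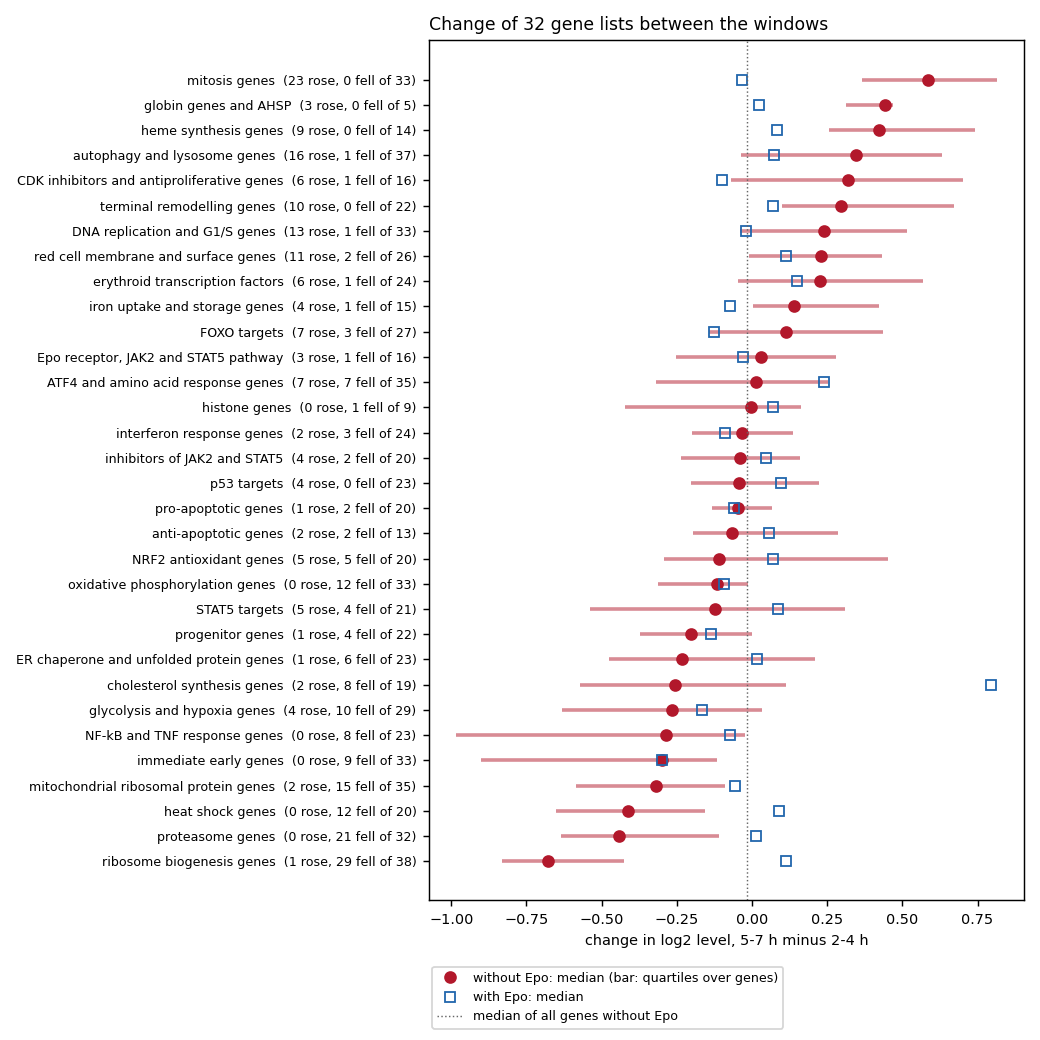
Change in log2 level from 2 to 4 h to 5 to 7 h (horizontal axis) for 32 gene lists: the median over members without Epo (red circles), their quartiles (bars) and the median with Epo (blue squares), with the counts of called genes without Epo in brackets and the median of all genes, -0.02, as a dotted line. Mitosis genes (0.59) lie farthest right and ribosome biogenesis genes (-0.68) farthest left without Epo, and cholesterol synthesis genes with Epo stand at 0.79.

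Of 33 immediate early genes 9 fell (27.3%) and 0 rose (median -0.30). The same median was -0.30 with Epo, where 1 was called. Jun, an AP-1 factor, had gone from 4.94 at 0 h to 10.94 at 1 h and lay at 9.86, 8.99 and 8.71 and then at 8.07, 7.97 and 7.82 (-1.23 ± 0.24, adjusted p = 0.0076). It thus remained far above its 0 h level at 7 h. Fos, its partner, had gone from 4.90 to 8.36 and lay at 7.13, 5.91 and 5.79 and then at 4.43, 4.81 and 4.39, below its 0 h level. Junb fell by 1.46 on the log2 scale and Atf3 by 1.68. Of 23 NF-kB and TNF response genes 8 fell (34.8%) and 0 rose (median -0.28). Nfkbia, the inhibitor that NF-kB induces as its own brake, stood at 12.74 at 1 h and lay at 12.00, 10.86 and 10.27 and then at 9.79, 9.67 and 9.65 (-1.34 ± 0.33, adjusted p = 0.020). Nfkbie (-1.36), Nfkbiz (-1.20) and Icam1 also fell. Of 24 interferon response genes 2 rose and 3 fell: Gbp3, Bst2 (-0.77) and Irf1 (-0.61) fell and Usp18, which quiets the interferon receptor, was among the risen (0.63). No interferon gene was called higher without 3, 6 or 7 h, 1 was without 5 h, and 1 was called lower without 7 h. Without 7 h 1 NF-kB gene was called lower, without 6 h 2, without 5 h 3 and without 3 h 4. Nfkbia did not pass without 3, 5, 6 or 7 h (adjusted p up to 0.096), Nfkbiz without 5, 6 or 7 h (up to 0.17), Nfkbie (0.085), Jun (0.057) and Bst2 (0.060) without 7 h, Irf1 without 3, 5, 6 or 7 h (up to 0.13) nor Usp18 without 3, 6 or 7 h (up to 0.087). Of immediate early genes 6 were called lower without 6 or 7 h.

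Amino acid stress and antioxidant genes split. Of 35 ATF4 and amino acid response genes 7 rose and 7 fell (20.0% each, median 0.01). Aars, an alanyl-tRNA synthetase gene, rose from 10.40, 11.00 and 11.02 to 11.54, 11.71 and 11.82 (0.88 ± 0.15, adjusted p = 0.0051). Phgdh, the first enzyme of serine synthesis, was level at 11.12, 11.03 and 11.05 and then lay at 10.36, 10.02 and 9.69 (-1.04 ± 0.14, adjusted p = 0.0028), and with Epo at 10.29 to 10.50. Beside it fell Atf3 and Ddit4. Without 7 h 2 genes of this list were called higher and 4 lower, and without 3 or 6 h 4 were lower. Without 3, 5 or 6 h 3 or 4 were higher. Of 20 NRF2 antioxidant genes 5 rose and 5 fell (median -0.11). Nqo1, a quinone reductase, rose from 6.67, 7.19 and 7.61 to 8.34, 8.35 and 8.38 (1.20 ± 0.20, adjusted p = 0.0042). With Epo it rose as well, from 7.23, 7.82 and 8.56 to 9.41, 9.71 and 9.83 (1.78, adjusted p = 0.024). Gclc, which limits glutathione synthesis, rose (0.76), while the glutathione transferase Gsta4 (-1.07) and the pentose phosphate enzyme Taldo1 (-0.78) fell. Without 7 h 2 of this list were higher and 3 lower, and without 6 h 3 were higher. Gclc (adjusted p = 0.079) and Taldo1 (0.060) did not pass without 7 h.

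Among death and survival genes, the shares of pro-apoptotic genes called lay near those of all genes (9.22% rose and 7.51% fell). Of 20 pro-apoptotic genes 1 rose (5.00%) and 2 fell (10.0%, median -0.05): the apoptosome gene Apaf1 rose (0.42), and Bnip3 (-0.76) and the cytochrome c gene Cycs (-0.24) fell. Bbc3, which encodes the p53 and FOXO target PUMA and was chosen after its values were seen, had gone from 5.72 at 0 h to 8.74, 8.60 and 8.90, and lay at 8.59, 8.65 and 8.73 at 5 to 7 h (-0.09, adjusted p = 0.68). With Epo it lay between 5.78 and 6.51. Of 13 anti-apoptotic genes 2 rose and 2 fell (15.4% each): Bcl2l1 and Mcl1 rose, the latter from 10.85, 11.45 and 11.59 to 11.97, 11.99 and 11.97 (0.68 ± 0.16, adjusted p = 0.015), and Birc3 (-1.06) and Bag1 (-0.43) fell. Of 23 p53 targets 4 rose (17.4%) and 0 fell (median -0.04): Trp53inp1, Zmat3 (0.92), Cdkn1a and Phlda3 (0.60). Zmat3 was level at 4.33, 4.20 and 4.19 and then at 5.11, 5.07 and 5.30. With Epo it lay between 4.54 and 5.74. Of 27 FOXO targets 7 rose (25.9%) and 3 fell (11.1%, median 0.11), among them the insulin receptor gene Insr (0.87), from 5.53, 5.68 and 5.91 to 6.55, 6.46 and 6.73, and the superoxide dismutase gene Sod2 (-0.74), from 10.95, 10.81 and 10.78 to 10.21, 10.15 and 9.96. The other probe sets of Insr lay at 0.00 and 0.07. Txnip, a FOXO target that limits glucose uptake, chosen after its values were seen, had gone from 7.49 at 0 h to 11.73, 11.05 and 10.90 and lay at 10.71, 10.79 and 10.63 later (-0.52, adjusted p = 0.073). In these 4 lists calls were lost without single hours. FOXO targets had 1 or 2 falls without 3, 5, 6 or 7 h, and 2 rises without 7 h, 3 without 5 h and 4 without 3 or 6 h, p53 targets 2 without 7 h, and pro-apoptotic genes 0 rises without 3, 5, 6 or 7 h. Both falls among anti-apoptotic genes were lost without 3, 6 or 7 h. Apaf1 did not pass without 3, 5, 6 or 7 h (adjusted p up to 0.12), Cycs without 3, 4, 6 or 7 h (up to 0.16), Bnip3 without 7 h (0.081), Mcl1 without 5, 6 or 7 h (up to 0.076), Birc3 without 3, 5, 6 or 7 h (up to 0.10), Bag1 without 3, 6 or 7 h (up to 0.074) nor Phlda3 without 6 or 7 h (up to 0.074).

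Autophagy and lysosome genes rose in part. Of 37 measured 16 rose (43.2%) and 1 fell, with a median of 0.34 against 0.07 with Epo, and the change was more positive without Epo for 11, where 4.24% of all genes were. The 11 became 2 without 6 h, 3 without 3 h, 6 without 5 or 7 h and 6 with the mean of probe sets or without the hour block. Among those that rose, Flcn, which encodes folliculin, lay at 6.83, 8.06 and 8.44 and then at 8.93, 8.96 and 8.99 (1.18 ± 0.32, adjusted p = 0.030), and Rragc, a RAG GTPase that binds mTORC1, at 8.62, 8.84 and 9.30 and then at 9.86, 9.93 and 10.01 (1.01 ± 0.15, adjusted p = 0.0034). The autophagosome gene Map1lc3a rose from 8.53, 8.87 and 9.18 to 9.76, 9.85 and 9.92 (0.98 ± 0.15), against 8.46 to 8.65 with Epo, and the proton pump subunit Atp6v0d1 from 9.20, 9.48 and 9.71 to 10.26, 10.45 and 10.61 (0.98 ± 0.14). The kinase genes Ulk1 (-0.40) and Ulk2 (0.41), which start autophagy, and Becn1 (-0.26) were not called (adjusted p above 0.05), and Ctsl, a cathepsin, fell (-0.61). These 4 were chosen after their values were seen. Rises numbered 10 without 6 or 7 h and 11 without 5 h, the fall was lost without 6 or 7 h (0 lower), and Flcn did not pass without 3, 5, 6 or 7 h (adjusted p up to 0.12).

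Of 29 glycolysis and hypoxia genes 10 fell (34.5%) and 4 rose (13.8%; median -0.27, -0.17 with Epo). Pfkp, a phosphofructokinase, lay at 6.89, 6.70 and 6.45 and then at 5.84, 5.82 and 5.53 (-0.95 ± 0.15, adjusted p = 0.0035). The hypoxia-inducible demethylase Kdm3a (0.86) and the oxygen sensor Egln1 (0.86) rose, beside Slc2a1. Without 7 h 4 were called lower, without 6 h 5 and without 3 or 5 h 6. Of 19 cholesterol synthesis genes 8 fell (42.1%) and 2 rose (10.5%) without Epo (median -0.26), and with Epo the median was 0.79, with 2 called higher. For 12 of the 19 the change was more negative without Epo, against 3.37% of all genes, and for 5 without 6 h, 7 without 3 or 7 h and 5 with the mean of probe sets. Idi1, the isopentenyl diphosphate isomerase, lay at 9.85, 9.79 and 9.76 and then at 9.29, 9.26 and 8.96 without Epo (-0.63 ± 0.11, adjusted p = 0.0049). With Epo it lay at 10.70, 10.87 and 11.23 and then at 11.94, 12.01 and 12.10 (1.09, adjusted p = 0.013). Dhcr7 (-0.72), Hsd17b7 (-0.67) and Tm7sf2 (-0.62) fell without Epo, and with Epo they stood at 0.73, 0.73 and -0.33, none called. No sterol gene was called higher without 3, 5, 6 or 7 h. Of them 1 was called lower without 6 or 7 h, 2 without 5 h and 4 without 3 h, with adjusted p up to 0.18 for Dhcr7, 0.11 for Hsd17b7 and 0.15 for Tm7sf2. Hepatocytes make cholesterol, and the median change of their markers was -1.07 without and -0.81 with Epo; their part in these values was not tested.

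Markers of other cells were read gene by gene. Of 14 hepatocyte markers 13 fell and 0 rose (median -1.07), and with Epo the median was -0.81 with 0 called, where 0.181% of all genes were. The difference between the series was called for none of the 14 (limma, adjusted p under 0.05), where 7.61% of all genes were. At these shares, 0 of 14 says little about the markers. Albumin, Alb, lay at 11.67, 11.39 and 10.98 and then at 10.41, 10.35 and 10.26, and Ttr, transthyretin, at 10.22, 9.87 and 9.62 and then at 8.70, 8.45 and 8.32 (-1.41 ± 0.16). Apoa1 (-1.31), Fgb (-1.25) and Fga fell alike. The hepatocyte factor Hnf4a was the member not called (-0.36, adjusted p = 0.16). Alb and Hnf4a were chosen after their values were seen. Without 7 h 9 were called. Of 12 granulocyte markers 3 fell and 1 rose: Mpo lay at 9.01, 8.11 and 8.19 and then at 7.05, 6.89 and 6.43 (-1.65 ± 0.24, adjusted p = 0.0030), and the granule protease genes Prtn3 (-1.27) and Ctsg (-0.69) fell, while S100a8 rose (0.51). Ctsg did not pass without 6 or 7 h (adjusted p up to 0.089), Prtn3 without 7 h (0.065) nor S100a8 without 3, 5, 6 or 7 h (up to 0.17), and 1 marker was called lower without 7 h. Of 11 megakaryocyte markers Gp9 rose (0.52), with adjusted p up to 0.13 without 3, 5, 6 or 7 h. Macrophage (18), mast cell and basophil (9), lymphoid (11) and endothelial and stromal markers (14) gave 0 calls in either direction. Of 12 CFU-E and erythroblast markers 7 rose and 0 fell (median 0.30), with a summed signal of 30300, 36600 and 37000 and then 44200, 46000 and 48800, and without 6 or 7 h 4 rose. With Epo the median change was close, at 0.27, with sums of 23600, 29600 and 31700 and then 32100, 34200 and 38800. The change was more positive without Epo for 4 of the 12, and for 1 to 4 without single hours, where 4.24% of all genes were. Kit was not called without Epo (0.25, adjusted p = 0.13), where with Epo it went from 6.23, 6.03 and 5.95 to 5.38, 5.11 and 5.00.

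The change was then set against that in the Epo series at the same hours. No array is shared between the series, which already differed for some genes at 0 h. Hspa1b lay there at 7.85 without and 9.88 with Epo, and Jun at 4.94 and 6.96, while Bcl2l1 lay at 7.82 and 7.73. Any other difference between the series cannot be told apart from that of Epo. The 5 largest positive and 5 largest negative differences among the 1384 called genes included genes with little change without Epo. Relb, an NF-kB subunit, lay without Epo at 7.52, 8.79 and 9.11 and then 8.85, 8.74 and 8.28 (0.15), and with Epo fell from 7.11, 6.78 and 6.08 to 4.78, 4.56 and 3.34 (difference 2.58 ± 0.47, adjusted p = 0.0072). Nab2, a corepressor of EGR factors, lay between 3.91 and 4.09 without Epo and with it at 7.82, 6.49 and 4.96 and then at 4.11, 4.23 and 4.12 (difference 2.18 ± 0.48, adjusted p = 0.017). Rrad, a RAS-like GTPase, had a difference of 2.37 ± 0.54 (adjusted p = 0.019). Csf2rb, the common beta chain of the IL-3 and GM-CSF receptors, stayed between 3.94 and 4.65 without Epo and with it lay at 3.72, 5.04 and 5.91 and then at 6.50, 7.18 and 7.42 (difference -2.33 ± 0.48, adjusted p = 0.012). The change with Epo was called for Relb (adjusted p = 0.024), not for Rrad (0.092), Nab2 (0.087) or Csf2rb (0.067). The differences of Trp53inp1 (2.10 ± 0.27, adjusted p = 0.0026), Hspa1b (-2.87 ± 0.47, adjusted p = 0.0042) and Ddit4 (-2.54 ± 0.37, adjusted p = 0.0030) came with a call without Epo and none with it. Hspa1b fell with Epo too, but earlier: it lay there at 9.88, 10.55, 6.84 and 5.17 at 0, 1, 2 and 3 h. Its difference between the windows thus leaves out most of that fall. Mvd, a sterol pathway enzyme, was called in both, lower without Epo (-0.45) and higher with it (1.49; difference -1.94 ± 0.30, adjusted p = 0.0036). Its fall without Epo did not pass with any single hour left out (adjusted p from 0.056 to 0.20). Epor (0.80 ± 0.14, adjusted p = 0.0055), Jak2 (0.97 ± 0.18, adjusted p = 0.0080) and Bcl2l1 (0.89 ± 0.17, adjusted p = 0.0075) also changed more positively without Epo. Across all genes the change without Epo had an SD of 0.34 and that with Epo of 0.23, and the 2 changes correlated at r = 0.25 and rho = 0.18 over genes, which are not independent. The count of 1384 fell to 236 without 6 h, 453 without 3 h, 517 without 7 h and 837 without 5 h. Without single hours Rrad, Nab2, Klhl24, Csf2rb, Epor, Jak2 and Bcl2l1 lost the call, with adjusted p up to 0.10, 0.077, 0.092, 0.068, 0.060, 0.065 and 0.060.

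**Figure D5:**
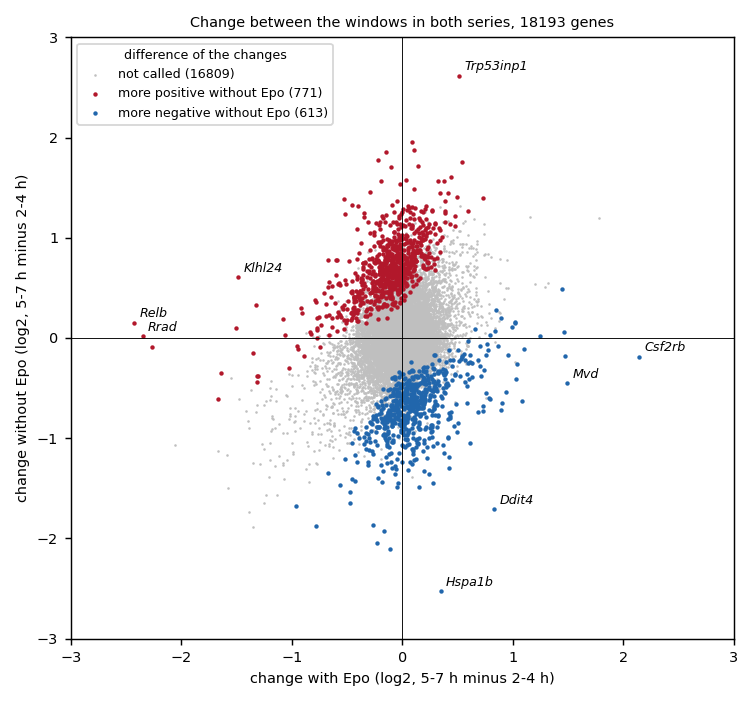
Change in log2 level from 2 to 4 h to 5 to 7 h for 18193 genes, with Epo on the horizontal and without Epo on the vertical axis; red points (771) changed more positively and blue points (613) more negatively without Epo (adjusted p under 0.05), grey points were not called. Trp53inp1 and Hspa1b lie far from 0 without Epo and nearer to it with Epo, and Relb, Rrad and Csf2rb the other way round.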

How the data were processed

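RNA had been hybridised to 1 mouse expression array per hour, 20 arrays in all, and 6 entered the main test. The authors deposited log2 values (range 1.37 to 14.56, from which the scale was read), and the authors' summarisation and scaling are not given in the sources used here. Of 45101 probe sets 34945 carried 1 gene symbol in GEO's platform annotation, 932 carried several, 9160 were unnamed here and 64 were controls. Names were checked against the GRCm38.p6 gene table, which held the gene of 34741. For 18193 genes the brightest probe set, by its mean over the 20 arrays, was used, with no filter on dim genes. Other probe sets of called genes moved in the same direction in 3098 of 3765 cases (82.3%).

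Windows were compared in R 4.3.3 by limma 3.58.1 (lmFit, then eBayes with a variance trend). A call needed an adjusted p under 0.05, by Benjamini and Hochberg's method across every gene. The difference between the series used 12 arrays with the hour as a block. Errors after ± are standard errors of the fit. Tables and plots used Python 3.11.15, pandas 2.3.3, numpy 2.4.6, scipy 1.17.1 and matplotlib 3.10.9. In simulated data of 18193 genes far fewer genes were changed than were called in the real data. There the window test called 16.4%, 77.6% and 100% of changes of 0.5, 1 and 2 in the right direction. It also called 6 unchanged genes. The test between series called 1.5%, 44.8% and 97% of such changes, and 1 unchanged gene. Whether these values hold when many more genes change, or for arrays of successive hours, which may drift inside a window, was not tested.

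Hours, gene lists and named genes were chosen with earlier results of these data known. Lists are described by counts and medians, with the shares and median of all genes given at the first list. The 40 lists held 879 genes, of which 801 were measured. Some genes stood in more than 1 list, so the lists are not separate results. Epor, for example, was counted among pathway, terminal remodelling and erythroblast marker genes. Named genes were the 12 largest rises and falls with separate windows, up to 4 called members per list, the 5 largest differences between series each way, and Epor, Jak2, Stat5a, Stat5b, Cish, Socs3, Pim1 and Bcl2l1; genes outside this rule are said to be chosen after their values were seen. Alternatives were quantile normalization, median centring, brighter genes only, averaged probe sets, only probe sets lacking the suffixes that mark shared targets, no trend or a robust fit, a slope over 2 to 7 h, no hour block and each hour left out.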

Additional observations from a re-analysis of the deposited data

Results flagged for a closer look

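These results had a change between the windows that differed between the series by the test of the difference itself (limma, adjusted p under 0.05). Over all genes there were 1384. More positive without Epo were the changes of Trp53inp1 (2.10), Relb (2.58), Rrad (2.37), Nab2 (2.18) and Klhl24, a kelch-like gene (2.10), and, among the genes of the receptor pathway and its targets, Epor (0.80), Jak2 (0.97) and Bcl2l1 (0.89). More negative without Epo were those of Hspa1b (-2.87), Hspa1a (-1.99), Ddit4 (-2.54), Csf2rb (-2.33) and Mvd (-1.94). With Epo, Hspa1b had dropped from 10.55 to 6.84 and Hspa1a from 9.19 to 4.90 between 1 and 2 h, before the later window. For Relb, Rrad, Nab2 and Csf2rb the change without Epo was not called, and the change with Epo was -2.43, -2.35, -2.27 and 2.14. Klhl24 lay at 7.74, 8.49 and 8.66 and then at 9.17, 8.83 and 8.73 without Epo (0.61, adjusted p = 0.084), and with Epo at 6.62, 5.90 and 5.09 and then at 4.54, 3.80 and 4.81 (-1.49).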

How the results depend on the processing

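The number of called genes without Epo stayed within 1.5 times the 3044 reported under rescaling, brighter genes only (3243 of 9096), the mean of probe sets (2366), other probe sets, other variance models and the slope over 2 to 7 h (4268). The share of rises was 55.1%, 50.3% after quantile normalization and 60.3% after median centring. Leaving out single hours gave 845 to 3798 genes, 485 to 2100 higher and 360 to 1698 lower, with the fewest without 7 h; of those 845, 843 were also among the 3044. The difference between the series gave 702 genes (380 more positive, 322 more negative) with the mean of probe sets, 824 (501 and 323) without a variance trend and 896 (488 and 408) without the hour block, and quantile normalization gave more negative (797) than positive (730) ones. Leaving out single hours gave 236 to 1887, 118 to 1102 more positive and 118 to 785 more negative. Changes near 0 turned sign: Stat5b was at 0.035 with the mean of probe sets and from -0.10 to 0.086 over single hours left out, Relb from -0.33 to 0.47, Rrad from -0.089 to 0.14, Csf2rb from -0.33 to 0.0083 and, as a difference between the series, Stat5b from -0.15 to 0.20. Atp5c1 turned to 0.054 without cross-hybridising probe sets. The cause was not tested. Of 148 named genes 60 lost the call without 7 h, 40 without 6 h, 29 without 5 h and 25 without 3 h, 12 with the mean of probe sets and 5 after quantile normalization. No paired analysis was possible because the windows hold different hours with 1 array each and the labels give no replicate numbers.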
